A study of Mus musculus with 4 samples.

Results

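The genes described here handle retinoic acid, the active form of vitamin A: the binding proteins Crabp1 and Crabp2, the receptors Rara, Rarb and Rarg, the synthesis enzyme Aldh1a2 and the turnover enzymes Cyp26a1, Cyp26b1 and Dhrs3. They were taken as all probe sets that the platform annotation pairs with one of these 9 symbols and with no other, which gave 10 probe sets for 9 genes, out of 34945 such probe sets for 18193 genes. Rarg had 2 probe sets and the other 8 genes had 1 each. Total RNA of mouse cells was hybridised to Affymetrix oligonucleotide arrays, 1 array for each of 4 kinds of cell.

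The arrays held cells sorted by GFP, a fluorescent protein that here reports HB9 (the motor neuron factor encoded by Mnx1), cerebellar granule cells of postnatal day 6, and sorted neural stem cells labelled with Sox1, a transcription factor of neural progenitors. Undifferentiated embryonic stem (ES) cells were the baseline. Per the labels, the ES cells, transgenic for HB9-GFP, were kept with leukemia inhibitory factor (1000 U/ml) on a layer of mouse embryonic fibroblasts treated with mitomycin C. Differentiation medium held Sonic hedgehog (Shh, given as 200 uM), retinoic acid at 0.1 uM and purmorphamine, an activator of the hedgehog pathway, at 0.2 uM, from day 5 to day 9. The GFP-positive cells were collected on day 8, which precedes the stated last day of the factors. The labels do not give the mouse strain or the number of animals behind the granule cells, nor whether the Sox1 cells were exposed to retinoic acid.

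Retinol is oxidised to retinal, which DHRS3 can reduce back, and ALDH1A2 oxidises retinal irreversibly to retinoic acid. In the cytosol retinoic acid is bound by CRABP1 and CRABP2, of which CRABP2 is known to hand it on to the nuclear receptors RARA, RARB and RARG. These act with RXR partners at response elements in DNA, and the CYP26 enzymes oxidise retinoic acid and so clear it. In the embryonic neural tube a retinoic acid gradient patterns the hindbrain and spinal cord, and added retinoic acid is widely used to turn ES cells into spinal neurons. Rarb, Cyp26a1 and Dhrs3 are themselves known targets of the receptors.

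The promoters of Cyp26a1 and Rarb are shown because the letters of a retinoic acid response element occur in them. Those of Crabp1 and Cyp26b1 are shown because these genes, like Cyp26a1, had their highest signal on the Sox1 array. The windows come from RefSeq (build GRCm38.p6), run 5′ to 3′ on the gene's strand from 250 bases before the start of transcription to 50 bases after it, and cover chr19:37697558-37697857 (plus strand) for Cyp26a1, chr14:16575427-16575726 (minus strand) for Rarb, chr9:54764498-54764797 (plus strand) for Crabp1 and chr6:84593761-84594060 (minus strand) for Cyp26b1. Capitals mark a direct repeat of the core motif with 5 bases between its copies.
Cyp26a1: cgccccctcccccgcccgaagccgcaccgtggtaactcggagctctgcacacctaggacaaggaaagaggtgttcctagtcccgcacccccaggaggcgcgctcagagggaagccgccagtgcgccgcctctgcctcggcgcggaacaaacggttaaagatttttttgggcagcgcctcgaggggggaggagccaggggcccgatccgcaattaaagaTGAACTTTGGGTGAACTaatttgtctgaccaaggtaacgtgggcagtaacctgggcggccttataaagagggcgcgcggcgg
Rarb: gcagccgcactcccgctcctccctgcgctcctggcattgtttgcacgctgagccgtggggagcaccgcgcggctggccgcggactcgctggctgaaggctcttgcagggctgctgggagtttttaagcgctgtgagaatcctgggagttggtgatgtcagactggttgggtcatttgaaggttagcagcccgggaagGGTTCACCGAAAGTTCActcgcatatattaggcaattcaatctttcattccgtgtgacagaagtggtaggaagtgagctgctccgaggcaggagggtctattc
Crabp1: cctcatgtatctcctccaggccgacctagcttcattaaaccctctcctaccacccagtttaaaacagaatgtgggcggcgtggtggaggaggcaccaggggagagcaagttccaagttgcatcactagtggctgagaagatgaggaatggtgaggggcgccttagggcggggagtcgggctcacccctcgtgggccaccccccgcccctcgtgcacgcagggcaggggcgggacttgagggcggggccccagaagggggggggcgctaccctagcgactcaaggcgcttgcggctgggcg
Cyp26b1: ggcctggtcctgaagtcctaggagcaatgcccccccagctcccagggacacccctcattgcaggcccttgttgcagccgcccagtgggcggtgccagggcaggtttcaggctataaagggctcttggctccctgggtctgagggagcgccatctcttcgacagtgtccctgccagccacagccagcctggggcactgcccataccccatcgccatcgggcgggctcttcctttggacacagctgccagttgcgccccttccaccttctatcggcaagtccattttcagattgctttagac

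The core motif was searched in its usual form AGGTCA and in the variant forms spelled AGTTCA and likewise GGGTCA and, last, GGTTCA, in any pairing, on both strands, with 5, 2 or 1 bases between the copies. Of the 9 genes, 8 had at least 1 promoter window in the table, with 14 windows in all, and Crabp2 had none. The repeat with 5 bases between was found for 2 of these 8 genes, against 31 of 27025 genes (0.115%) over the whole promoter table. In Rarb it read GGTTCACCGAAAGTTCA at chr14:16575513-16575529, from 53 to 37 bases before the start. In Cyp26a1 it lay on the other strand, where it reads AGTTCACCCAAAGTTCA, at chr19:37697776-37697792, from 32 to 16 bases before the start. No window of the 8 genes held the repeats with 2 or 1 bases between, which 0.311% and 0.263% of all genes had, and the elements did not overlap another repeat searched. These matches describe letters in the windows and not binding. Rarb and Cyp26a1 were known targets of the receptors beforehand, so the count of 2 of 8 genes is no test of the gene set.

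Across the 4 arrays, the binding protein genes had the widest ranges among the 9 genes, with their highest signals on the Sox1 array, while 2 of the 3 receptor genes were undetected everywhere. Values are intensities as the authors deposited them, and a signal is used here only to compare arrays for one probe set, since probe sets differ in how brightly they bind. Signals summed over a marker list are likewise compared only between arrays, over the same probe sets. The low level was a signal of 78.8, the mean of the arrays' medians taken on the log2 scale, and lower values were set to it. A gene was detected at a signal of at least 157.5, and was called higher or lower in a pair of arrays where the brighter signal passed detection and the difference reached 4-fold. By this measure the array labelled HB9-GFP+ detected 4 of the 9 genes, the granule array 3, the Sox1 array 5 and the ES array 2. Over all genes the detected share was 51.3%, 52.3%, 51.5% and 51.8% in the same order. With 1 array per kind of cell no p-value, SD over samples or replicate check exists, and every difference is one between these arrays.

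**Figure D1:**
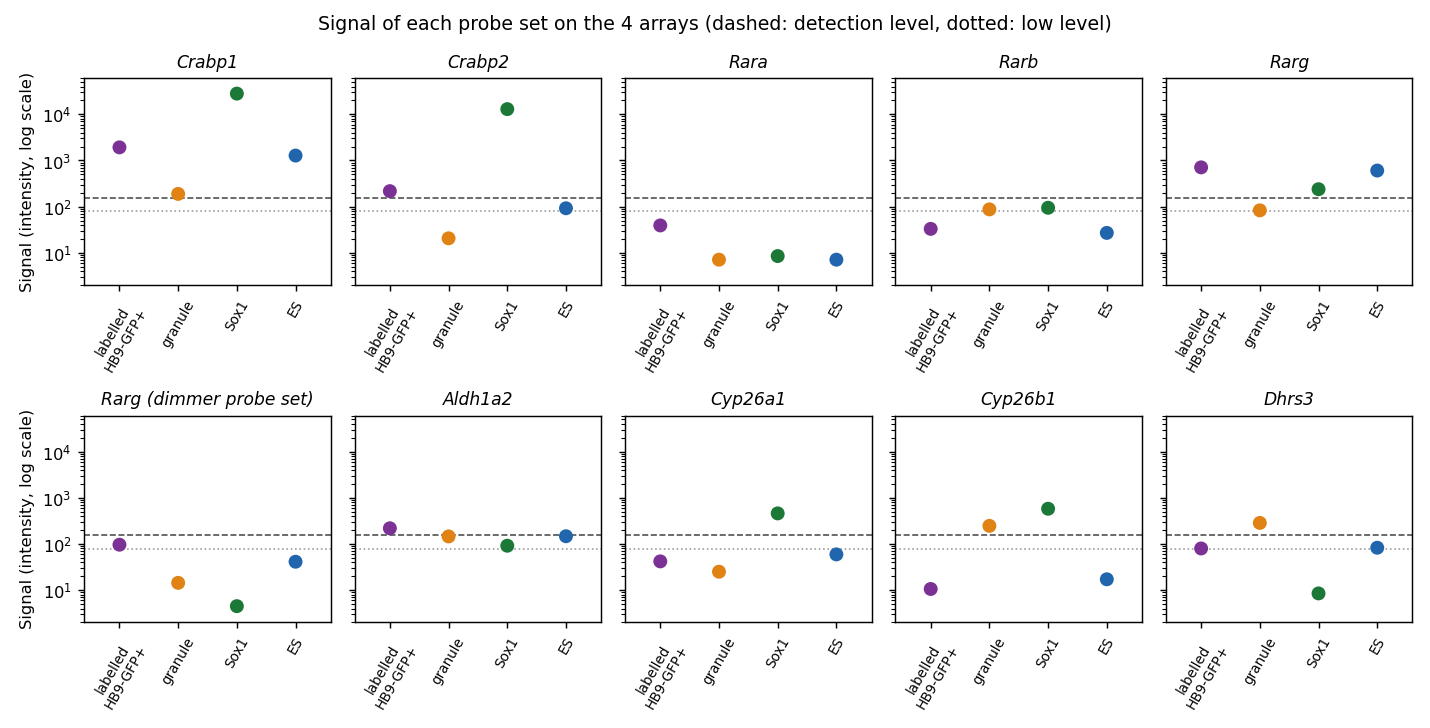
Each panel shows the deposited signal of 1 probe set (y axis, intensity on a log scale) on the 4 arrays (x axis), with 1 point per array. The dashed line is the detection level of 157.5 and the dotted line the low level of 78.8. Crabp1 and Crabp2 stand highest on the Sox1 array, at 28152.5 and 12979.2, and Rara and Rarb lie below the dashed line on all 4 arrays.

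The labels were compared with marker genes before the genes themselves. On the array labelled HB9-GFP+ all 18 pluripotency genes were detected, as on the ES array, and 1 of 10 motor neuron genes, Olig2, at 320.6. Mnx1 had a signal of 15.9 with the array labelled HB9-GFP+, 6.3 with granule, 13.7 with Sox1 and 5.8 with ES cells, all undetected. The array labelled HB9-GFP+ thus goes against its label, and results that rest on it are those of the array as labelled. Fibroblast genes were detected for 15 of 17 on it and for 5 of 17 in ES cells. On the Sox1 array all 14 neural progenitor genes were detected, with Sox1 itself at 2262.1, and so were 8 of 12 Hox genes of the hindbrain and upper spinal cord. On the granule array 10 of 13 granule neuron genes were detected, but so were 8 of 9 genes of Purkinje cells and interneurons and all 10 of astrocytes and Bergmann glia. The granule array also detected 10 of 17 fibroblast genes. Genes of vessels, blood and microglia were detected for 4 of 10 on it and for 4 of 10 on the ES array. In such bulk samples fewer cells of a type and less RNA per cell cannot be told apart.

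**Figure D2:**
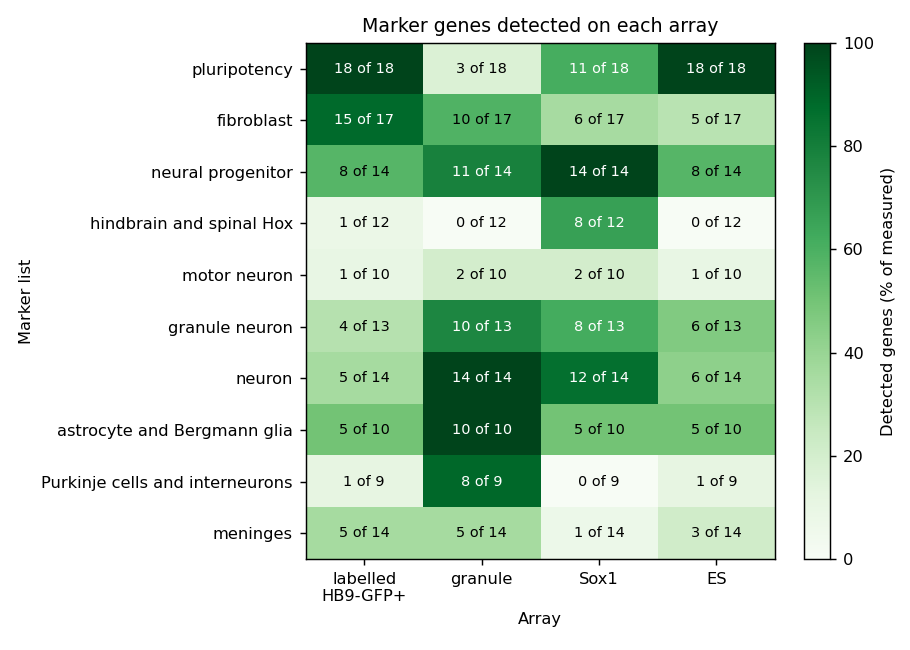
Share of each marker list detected (colour, percent of measured genes) on the 4 arrays (columns), with the counts written in each cell. Pluripotency genes fill the columns of the array labelled HB9-GFP+ and of the ES array, with 18 of 18 detected in each.

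Among the binding proteins, Crabp1, a cytosolic protein thought to buffer retinoic acid, was the only one of the 9 genes detected on all 4 arrays. The array labelled HB9-GFP+ read 1927, the granule array 188.9, the Sox1 array 28152.5 and the ES array 1278.5. The Sox1 array thus held 89.2% of the signal summed over the arrays, and stood 14.6-fold above the next, which was the array labelled HB9-GFP+. The neighbours HB9-GFP+ and ES differed by 0.59 log2 units, close to the pooled SD of 0.49 among probe sets of one gene in that comparison, and are not separated here. The granule signal was only slightly above the detection level.

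Crabp2, which carries retinoic acid to the receptors, had the more uneven profile. The array labelled HB9-GFP+ read 216.9, the granule array 20.6, the Sox1 array 12979.2 and the ES array 92.2. Detection was reached by the HB9-GFP+ and Sox1 arrays, and the Sox1 array held 97.5% of the summed signal. The Sox1 signal was 59.8-fold that of the array labelled HB9-GFP+. The order below the Sox1 array cannot be settled between the granule and ES arrays, since both were undetected.

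The receptors, which switch target genes on when they hold retinoic acid, were mostly dark. For Rara the array labelled HB9-GFP+ read 39.2, the granule array 7.1, the Sox1 array 8.5 and the ES array 7.1. For Rarb the array labelled HB9-GFP+ read 33, the granule array 87.3, the Sox1 array 94.6 and the ES array 27. Neither was detected anywhere, so no order among the arrays is given for them. Signals this low do not show that the genes are silent, since a probe set may bind poorly.

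Rarg, a receptor known to be expressed in pluripotent and early embryonic cells, was the receptor that could be measured. Its brighter probe set had a signal of 710.2 with the array labelled HB9-GFP+, 83.2 with granule, 238.7 with Sox1 and 605.9 with ES cells. The array labelled HB9-GFP+ and the ES array were highest and differed by 0.23 log2 units, less than the pooled SD of 0.49 among probe sets. The Sox1 array lay lower and the granule array was undetected. The second Rarg probe set did not reach detection on any array, at 96.6, 14.4, 4.5 and 41.3 in the same order.

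Aldh1a2, the enzyme that makes most retinoic acid in the early embryo, was called in none of the 6 comparisons of arrays. The array labelled HB9-GFP+ read 219.3, the granule array 146.1, the Sox1 array 91.7 and the ES array 147.3, of which only the first is a detected signal. All of these lay within 1.26 log2 units, but how alike the undetected arrays were cannot be read. With a 2-fold threshold the gene was called higher on the array labelled HB9-GFP+ than on the Sox1 array. The granule and ES signals were nearly equal and just short of the detection level.

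Of the turnover genes, Cyp26a1 and Cyp26b1 were highest on the Sox1 array and Dhrs3 on the granule array. Cyp26a1, which degrades retinoic acid and is among its most direct targets, had a signal of 42 with the array labelled HB9-GFP+, 25.1 with granule, 460.6 with Sox1 and 59.5 with ES cells. It was detected on the Sox1 array only, and its promoter is one of those with the repeat shown above. Cyp26b1, the related enzyme known from the hindbrain and limb, had a signal of 10.6 with the array labelled HB9-GFP+, 247.2 with granule, 580.3 with Sox1 and 17.2 with ES cells. It was detected on the 2 neural arrays and on neither of the others. The granule signal was lower than the Sox1 signal by 1.23 log2 units, against a pooled SD of 0.49 among probe sets.

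Dhrs3, which turns retinal back into retinol and so limits synthesis, ran another way. It had a signal of 80.1 with the array labelled HB9-GFP+, 286.3 with granule, 8.5 with Sox1 and 83 with ES cells. Only the granule array passed the detection level. The 3 turnover genes thus did not share a profile: the granule array detected Cyp26b1 and Dhrs3 but not Cyp26a1, and the Sox1 array detected both CYP26 genes but not Dhrs3.

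The first comparison asks how the array labelled HB9-GFP+ differed from undifferentiated ES cells, and none of the 9 genes was called in it. Over all genes 1.11% were called higher and 0.813% lower. For Crabp2 the signals were 216.9 and 92.2, and for Aldh1a2 they were 219.3 and 147.3, each with the ES array undetected. Of the genes measured on both arrays, Crabp1 differed by 0.59 and Rarg by 0.23 log2 units, both upward and ranked 3482 and 6409 by size among 8633 genes. The other 5 genes were undetected on both arrays, Rarb and Cyp26a1 among them. Fibroblast markers moved in this comparison, with 11 of 17 called higher and a summed signal of 27873.1 against 3053.8. Among them Col3a1 was at 6165.2 against 20.6. Their part in the signals of Crabp2 and Aldh1a2 was not tested.

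The comparison of Sox1 neural stem cells with ES cells held 4 calls among the 9 genes, as many as any comparison. Crabp1, Crabp2, Cyp26a1 and Cyp26b1 were higher and none was lower, that is 4 of 9 higher against 3.59% of all genes, and 0 lower against 3.02%. Crabp1 was 22.0-fold higher, at 28152.5 against 1278.5, a difference that ranked 19 by size among the 8264 genes detected on both arrays. Crabp2 was at 12979.2 against 92.2, undetected. Cyp26a1 was at least 5.85-fold higher, at 460.6 against 59.5, and Cyp26b1 at least 7.37-fold higher, at 580.3 against 17.2. Rarg was lower by 1.34 log2 units, short of 4-fold, at 238.7 against 605.9. The other 4 genes were undetected on both arrays. The median log2 difference was 0.26 over the 9 genes and 0.00 over all genes. That middle value was the one of Rarb, undetected on both arrays at 94.6 against 27, so it measures no shift.

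The 3'/5' ratio of the actin control, a sign of RNA length, was 2.77 for the array labelled HB9-GFP+, 2.29 for granule, 5.08 for Sox1 and 4.55 for ES cells, and that of the Gapdh control was 1.37, 2.70, 3.68 and 1.99 in the same order. By the actin ratio, Sox1 and ES cells were closer to each other than either was to the granule array or the array labelled HB9-GFP+. By the Gapdh ratio, Sox1 and ES cells differed more than ES cells did from the granule array or the array labelled HB9-GFP+. The part of either ratio in the calls of any comparison was not tested. Endoderm and mesoderm genes were detected for 6 of 13 on the Sox1 array and 4 of 13 on the ES array, with summed signals of 4215.7 and 2836.4. Of 18 pluripotency genes 11 were detected on the Sox1 array and 18 on the ES array. In Sox1 cells 0 of them were called higher than in ES cells and 13 lower, Pou5f1 among the latter at 514.3 against 9255.5. The list did not fall as a whole. Sox2 was at 16172.6 against 18876.8, Sall4 at 6334.6 against 6565.2 and Lin28a at 6055.7 against 2006.4, none of them called. The part of the endoderm and mesoderm list or of the pluripotency list in the 4 calls, or in the Sox1 signal of Rarg, was not tested.

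Granule cells were compared with ES cells as the postnatal neuronal sample. Of the 9 genes 2 were lower, Crabp1 and Rarg, and none was higher, against 4.99% and 6.83% of all genes. Crabp1 was 6.77-fold lower, at 188.9 against 1278.5. Rarg was at 83.2, undetected, against 605.9. Cyp26b1 was at 247.2 against 17.2, at least 3.14-fold higher, and Dhrs3 at 286.3 against 83, both short of the call. The call of Rarg ended with the mean over its probe sets. Cyp26b1 was called higher without a floor, with a pseudocount of 32 and with centring on reference genes, and Dhrs3 with that centring. Genes of astrocytes and Bergmann glia were detected for 10 of 10 in granule cells and 5 of 10 in ES cells, with Gfap at 2224.6 against 13.4, and their part in these signals was not tested.

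**Figure D3:**
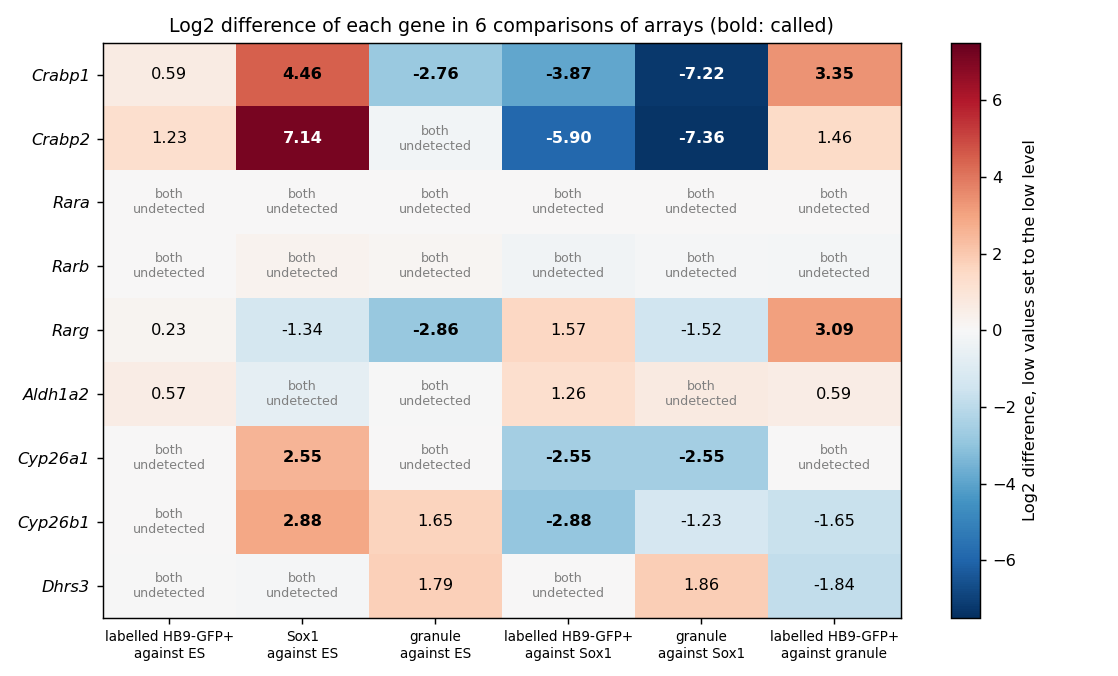
Log2 difference of each gene (rows) in 6 comparisons of arrays (columns), first-named array minus the second, after flooring at the low level (colour). Bold numbers are called, and cells where both arrays were undetected carry no number. The columns that involve the Sox1 array hold most calls. For Crabp2 the value is 7.14 in the column Sox1 against ES and -7.36 in the column granule against Sox1, and the Sox1 array is the higher in both.

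Against the Sox1 array, both the array labelled HB9-GFP+ and the granule array had lower binding protein and Cyp26a1 signals. The comparisons below share the Sox1 array with the one above, so each gene's values stand side by side and are not independent. On the array labelled HB9-GFP+, 4 of 9 genes were lower than on the Sox1 array, against 3.97% of all genes, and 0 were higher, against 3.22%. Crabp1 was 14.6-fold lower and Crabp2 was 59.8-fold lower, and the Crabp2 difference ranked 5 by size among 8210 genes detected on both arrays. Cyp26a1 was at least 5.85-fold lower, at 42 against 460.6, and Cyp26b1 at least 7.37-fold lower. Rarg was higher by 1.57 log2 units and Aldh1a2 was at 219.3 against 91.7, neither called.

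On the granule array, 3 of 9 genes were lower than on the Sox1 array, against 2.09% of all genes, and 0 were higher, against 3.66%. Crabp1 was 149-fold lower, at 188.9 against 28152.5, and ranked 1 by size among the 8489 genes detected on both arrays. Crabp2 was at least 165-fold lower, at 20.6 against 12979.2, and Cyp26a1 at least 5.85-fold lower, at 25.1 against 460.6. Cyp26b1 was lower by 1.23 log2 units and was not called. Dhrs3 ran the other way, at 286.3 against 8.5, at least 3.64-fold higher and short of the call, but called higher without a floor, with a pseudocount of 32 and with centring on reference genes. Markers of Purkinje cells and interneurons had summed signals of 12132.7 on the granule array and 845.1 on the Sox1 array, with 8 and 0 of 9 detected, and their part in the signals of Dhrs3 and Cyp26b1 was not tested.

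Between the array labelled HB9-GFP+ and the granule array, 2 of 9 genes were higher, against 5.53% of all genes, and 0 were lower, against 7.41%. Crabp1 was 10.2-fold higher, at 1927 against 188.9, and Rarg was at 710.2 against 83.2, undetected. Cyp26b1 was at least 3.14-fold lower, at 10.6 against 247.2, and Dhrs3 was at 80.1, undetected, against 286.3, neither called. The mean over probe sets ended the call of Rarg here too, and centring on reference genes added Cyp26b1 and Dhrs3 as lower.

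By the stricter rule of a 4-fold difference from each of the other 3 arrays, Crabp1, Crabp2 and Cyp26a1 were set apart on the Sox1 array, that is 3 of 9 against 0.616% of all genes. No other array set any of the 9 genes apart. Cyp26b1 missed this rule through its granule signal alone.

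The genes around retinoic acid were described from lists. Of 10 genes of retinoid uptake and storage, 1 was higher and 1 lower in Sox1 cells than in ES cells, counts too small to set against the 3.59% and 3.02% of all genes. The higher one was Ttr, a carrier of retinol and thyroid hormone, at 1062.6 against 24.7, and the lower was the cellular binding protein gene Rbp7, at 12.7 against 495. Ttr is also an endoderm gene, and 2 others of that list were higher in the same comparison, Foxa2 at 670.3 against 33 and Afp at 528 against 16.6. With Ttr, 3 of the 13 endoderm and mesoderm genes were thus higher. The list also had 1 lower, Gata6, at 107.7, undetected, against 457.9. The part of this list in the Ttr signal was not tested. On the array labelled HB9-GFP+ 0 were higher and 2 lower than on the ES array, Rbp7 at 75.4 against 495 and the lipase gene Lpl at 558 against 2428.8, and with centring on the median probe set 1 was lower. Stra6, the retinol uptake receptor, was undetected on all 4 arrays.

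Of 18 retinol and retinal dehydrogenases, none was called between the Sox1 and ES arrays. Over all genes 3.59% were higher and 3.02% lower, shares at which 0 of 18 is no result about the list. Rdh10, which makes retinal and thus opposes DHRS3, had a signal of 326.3 with the array labelled HB9-GFP+, 588.6 with granule, 842.8 with Sox1 and 358 with ES cells. It was detected on each array, and its other probe set put the arrays in the same order. Aldh1a1, a further retinal dehydrogenase, was at 661.1 in granule cells, against 2.8 in Sox1 cells and 8.2 in ES cells. It was at least 8.39-fold higher on the granule array than on each of them. Aldh1a3 was undetected on all 4 arrays. Rdh5 was the other dehydrogenase called higher on the granule array than on the Sox1 array, at 494.1 against 58.4. That made 2 of 18 higher, against 3.66% of all genes, and 0 lower, against 2.09%. The part of other kinds of cell on the granule array in the signals of Aldh1a1 and Rdh5 was not tested. Dhrs4 was called higher on the array labelled HB9-GFP+ than on the ES array, at 1013.7 against 144.7. That is 1 of 18, a count too small to set against the 1.11% of all genes.

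The partner receptors held no call in any of the 6 comparisons on the probe sets used. Rxrb had a signal of 889.4 with the array labelled HB9-GFP+, 1034.5 with granule, 951.1 with Sox1 and 532.3 with ES cells. Rxra was at 147.7, 261.5, 414.4 and 187.3 in the same order on the probe set used, but at 225.6, 131.8, 210.1 and 267.4 on another, so its probe sets disagreed on the order. Rxrg was undetected throughout. Fabp5, which can carry retinoic acid to the receptor PPARD instead, was at 10224.6, 23462.2, 32381.8 and 12129.4 on the probe set used, with no call. On its other probe set it was at 2376.7, 10432.6, 10933.1 and 2200.9. That probe set passed 4-fold upward for Sox1 against ES (2.31 log2 units) and granule against ES (2.24). It passed 4-fold downward for HB9-GFP+ against Sox1 (-2.20) and against granule (-2.13). Of 17 coregulators of the receptors, 16 were detected on each array and none was called against the ES array. Over all genes the called shares in those comparisons ran from 0.813% to 6.83%, so a count of 0 of 17 is no result about the list. For HB9-GFP+ against Sox1, 1 of 17 was lower, against 3.97% of all genes. With centring on reference genes 5 were lower for HB9-GFP+ against granule (0 reported). In granule cells against ES cells, 1 was lower with quantile normalization and 1 higher with centring on reference genes. The coactivator gene Ncoa1 was higher on the granule array than on the Sox1 array, at 3407.9 against 640.5.

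**Figure D4:**
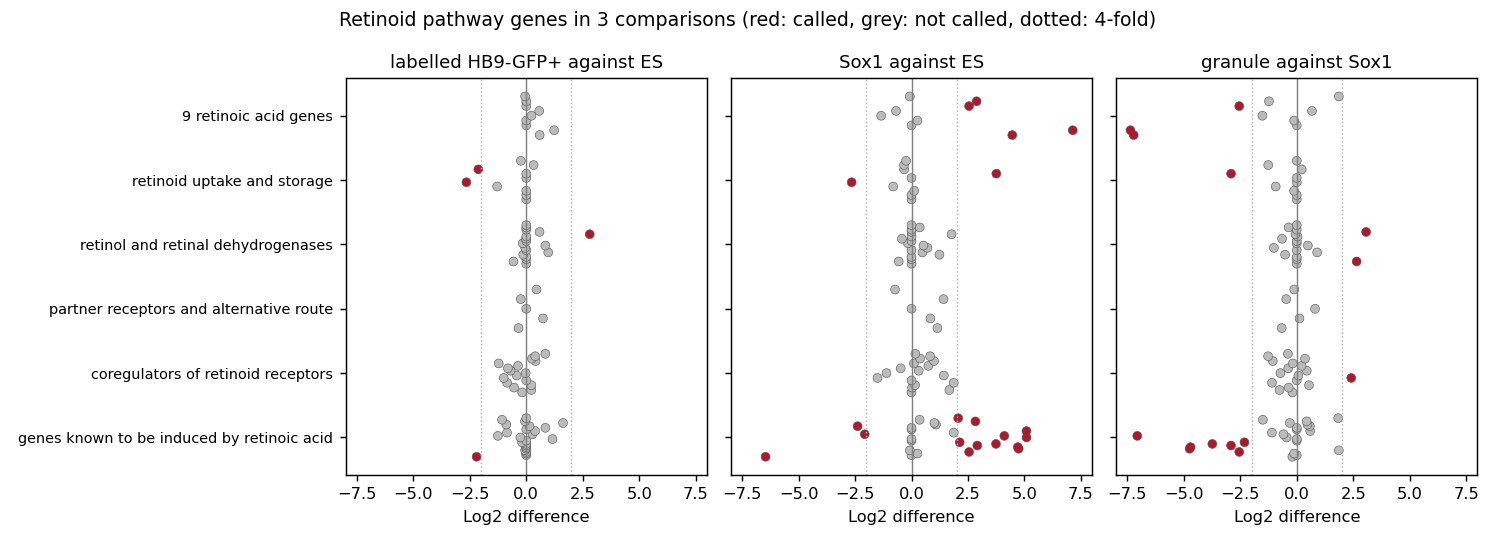
Log2 difference (x axis, floored at the low level) of each measured gene of the 9 genes and of 5 pathway lists (rows) in 3 comparisons (panels), 1 point per gene. Red points are called, grey ones are not, and dotted lines mark 4-fold. In the middle panel 11 of 25 genes known to be induced by retinoic acid are called higher and 3 lower.

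Genes known from other work to be induced by retinoic acid, a list that also holds Rarb, Cyp26a1 and Dhrs3, included 11 of 25 called higher and 3 lower on the Sox1 array than on the ES array, against 3.59% and 3.02% of all genes. The median log2 difference of the list was 1.08, against 0.00 over all genes. Without these 3 genes it was 10 of 22 higher and 3 lower. Meis1, a homeodomain partner of Hox proteins, was at 4097.7 against 120.3, the zinc finger gene Tshz1 was at least 34.0-fold higher, at 2680.6 against 47.2, and the hindbrain gene Hoxb1 at least 26.8-fold higher, at 2111.2 against 46.6. Stra8, which starts meiosis in germ cells, was lower, at 90.3, undetected, against 7962.3. The list's members thus moved in both directions. In granule cells 4 of 25 were higher (6 with centring on reference genes) and 3 lower than in ES cells, against 6.83% and 4.99% of all genes. Tshz1 was at 4047.1 in granule cells against 47.2, and Meis1 at 3009.5 against 120.3.

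On the array labelled HB9-GFP+, 0 of these 25 genes were higher and 1 was lower than on the ES array, against 1.11% and 0.813% of all genes. The lower one was Stra8, at 1731.3 against 7962.3. With centring on the median probe set that comparison had 1 higher and 0 lower. On the granule array 0 of 25 were higher (2 with centring on reference genes) and 7 lower than on the Sox1 array, against 3.66% and 2.09% of all genes, among them Meis2, 65.2 against 10527.4, Hoxb1, 23.5 against 2111.2, Hoxa2, 1.9 against 2051.6, and Hoxb2, 26.3 against 1051.6. Of 12 measured Hox genes of the hindbrain and spinal cord, 6 stood higher (5 with centring on reference genes) and 0 lower in Sox1 than in ES cells. Over all genes 3.59% were higher and 3.02% lower. Hoxb1, Hoxa2, Hoxb2, Hoxa3 and Hoxb4 of these are also on the list of 25 genes, so the counts overlap. Between the array labelled HB9-GFP+ and the ES array 0 of the 12 were called.

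For the 5 genes that were detected somewhere and spanned at least 2 log2 units, the 3 genes with the most alike profile were sought among 11571 genes detected on at least 1 array. Likeness was the root mean square difference of profiles floored at the low level and centred on their own mean over the 4 arrays. Nearest to Crabp1 were Hmga2 (0.58 log2 units), Meis2 (0.73) and Igdcc3 (0.86), and nearest to Crabp2 were Igdcc3 (0.70), Fst (0.72) and Fndc3c1 (0.74). Hmga2 had a signal of 955.4 with the array labelled HB9-GFP+, 38.9 with granule, 11709.6 with Sox1 and 1410.7 with ES cells. Nearest to Rarg were Myadm (0.079), Pfkl (0.090) and Sntb2 (0.140). Nearest to Cyp26b1 were Neurog1 (0.078), Fhl1 (0.079) and D930003E18Rik (0.086). Cyp26b1 was below the low level on the array labelled HB9-GFP+ and the ES array, so its likeness depends on the floor. Without the floor, Sox1 against ES was 5.08 log2 units for Cyp26b1 and 3.09 for Fhl1. The nearest genes to Cyp26a1 were Fezf2 (0.0089), Six6 (0.016) and Glra1 (0.018). Like Cyp26a1, these 3 were below the low level on the other 3 arrays, so that this likeness rests on the Sox1 signal alone.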

How the data were processed

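The deposited values are linear intensities for 45101 probe sets on 4 arrays, made by the authors. Per the submitters' processing notes they used GCRMA, with no version given. The values run from 0.1 to 43110.3, and each array's mean after trimming 2% at each end was 500.0, which is the form of a scaled linear signal, so the step that made the deposited intensity is uncertain. How total RNA per cell differed cannot be read from values scaled in this way, and the depth of an array has no counterpart of read counts: the number of arrays limits the precision.

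Probe sets were named from the platform's annotation table: 34945 non-control probe sets had 1 gene symbol, 932 probe sets had several and 9211 had none. Only those with 1 symbol were used. Of a gene's probe sets the one brightest on average (log2) stood for it. Values were taken to log2 and set to at least the low level of 6.30, a signal of 78.8. Detection was 1 log2 unit above it, and a call needed detection on the brighter array and 2 log2 units. A fold against a value below the low level is a lower bound ("at least"). No fold is given against a signal that was undetected but above the low level. Genes called were counted over all 18193 genes by the same rule. Technical spread was the SD of log2 differences over 18 hybridisation control probe sets, from 0.063 to 0.107, and the pooled SD among detected probe sets of a gene, from 0.46 to 0.67. Neither holds biological variation. Work was done in Python 3.11.15 with pandas 2.3.3 and numpy 2.4.6.

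The 9 genes, the lists and the rules were chosen with earlier results of these data known. Genes beside the 9 are named by a fixed rule: up to 4 called genes per pathway list with the largest difference in the comparisons HB9-GFP+ with ES, Sox1 with ES and granule with Sox1, a fixed set of pathway genes, marker genes, and the 3 genes of most alike profile. Olig2, Gata6, Sox2, Sall4 and Lin28a were named after their values were seen. Some genes of the lists were not analysed here. The 11 alternatives listed beforehand and 1 added after seeing the data changed the choice of probe set, the floor, the detection level, the threshold or the scaling between arrays.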

Additional observations from a re-analysis of the deposited data

How the results depend on the processing

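Of 72 counts of called genes under 12 alternatives (for each of 6 comparisons), 59 stayed within 1.5 times the value reported, and no called log2 difference changed sign. With a 2-fold threshold the counts were 1 for HB9-GFP+ against ES (Crabp2), 4 for granule against ES, 6 for granule against Sox1 and 5 for HB9-GFP+ against granule. With an 8-fold threshold they were 2 for Sox1 against ES and 2 for HB9-GFP+ against Sox1 (Crabp1 and Crabp2 in each), and 0 for granule against ES. With the mean over probe sets they were 1 for granule against ES and 1 for HB9-GFP+ against granule (Crabp1 in each). Without a floor, and likewise with a pseudocount of 32, HB9-GFP+ against granule had 4 (Crabp1, Crabp2 and Rarg higher, Cyp26b1 lower), and under both Cyp26b1 was called higher for granule against ES and Dhrs3 higher for granule against Sox1. With centring on reference genes granule against ES had 4 and HB9-GFP+ against granule 4 (Cyp26b1 and Dhrs3 added in each), and Dhrs3 was called higher for granule against Sox1. That centring shifted the median log2 difference of the genes detected on any array to 0.436 for granule against ES (-0.069 reported), 0.594 for granule against Sox1 (-0.030 reported) and -0.588 for HB9-GFP+ against granule (0.104 reported). Among all calls the share that was higher was then 76.1% for granule against ES (57.8% reported), 86.7% for granule against Sox1 (63.6% reported), 18.5% for HB9-GFP+ against granule (42.7% reported) and 41.4% for HB9-GFP+ against ES (57.7% reported). Centring on the median probe set gave 89.1% for HB9-GFP+ against ES, 63.8% for HB9-GFP+ against Sox1 (44.8% reported) and 64.5% for HB9-GFP+ against granule, and quantile normalization gave 67.7% for HB9-GFP+ against ES. Counts over all genes ran from 1210 to 2937 higher with the 2-fold threshold and from 51 to 573 higher with the 8-fold threshold, where 202 to 1243 were reported. Under the other alternatives they moved by over 1.5 times in these cases: with centring on the median probe set 449 higher and 55 lower for HB9-GFP+ against ES (202 and 148 reported), 929 higher for HB9-GFP+ against Sox1 (586 reported) and 1771 higher for HB9-GFP+ against granule (1006 reported), and with centring on reference genes 1928 higher for granule against ES (1243 reported), 1327 higher and 204 lower for granule against Sox1 (665 and 380 reported) and 523 higher and 2305 lower for HB9-GFP+ against granule (1006 and 1348 reported). The mean over probe sets gave 387 higher for Sox1 against ES (653 reported), 781 higher for granule against ES, 407 lower for HB9-GFP+ against Sox1 (723 reported), 436 higher for granule against Sox1 and 865 lower for HB9-GFP+ against granule. Of the 25 genes induced by retinoic acid, centring on reference genes left 9 higher for Sox1 against ES (11 reported). Leaving the array labelled HB9-GFP+ out of the low level and of the choice of probe sets, an alternative added after seeing the data, changed no count of the 9 genes called. No paired analysis was possible because each kind of cell had 1 array. Rara and Rarb, at or near background on every array, have no measurable difference here.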
